A study of Homo sapiens with 8 samples.

Results

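Genes of the extracellular matrix and its receptors were followed in a human astrocytoma line treated with progesterone, the antiprogestin RU-486 (mifepristone) or both. Members were defined by gene symbol, in a set chosen with earlier results of these data known. It held 99 of the 18417 genes measured. These were 43 collagen chains, 10 laminin chains, 20 integrin subunits, 22 matrix metalloproteinases (MMPs) and the 4 tissue inhibitors of metalloproteinases (TIMPs). Genes such as ITGB1BP1, ITGB1BP2, ITGB3BP and COL18A1-AS1 begin with a family symbol but encode other products, and these 4 were left out. The integrin subunits ITGAM, ITGAX, ITGAL, ITGAE and ITGAD fell outside the symbol rule and were read only as leukocyte and microglia markers. ITGA1, MMP23A and MMP23B were not analysed here because their probe sets carry several symbols in the array annotation.

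The cells were U373, an established line, grown without antibiotic and then held for 24 h in medium with 5% hormone-free serum before treatment. All groups shared these conditions and were collected after 12 h. They received both steroids together (the combination, 10 nM progesterone and 1 µM RU-486), RU-486 alone at 1 µM, progesterone alone at 10 nM, or vehicle. Each group had 2 arrays, 8 in all, hybridised with total RNA on a whole-transcript Affymetrix array. The doses of the 2 steroids differ, so RU-486 and progesterone are given side by side and not compared with each other. Replicates are labelled as biological, but whether each had its own culture is not given, so the p-values rest on the spread between these arrays, which may be technical. Stocks of U373 have in the past been found to be another glioblastoma line, which expression values do not check.

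Collagens, laminins and other secreted proteins form the matrix around cells. Fibrillar collagens such as types I, III and V build cables, while collagen IV and the laminins, each a trimer of an alpha, a beta and a gamma chain, build the basement membrane sheet. Integrins are pairs of an alpha and a beta subunit that hold the cell to these ligands, and MMPs cut the ligands, with the TIMPs as their inhibitors. In gliomas this system is known for its part in invasion along vessels and white matter. RU-486 blocks the progesterone receptor and also the glucocorticoid receptor, and glucocorticoids are known to lower transcription of several MMP genes.

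Values are log2 expression, 1 probe set per gene, and a difference of 1 is a doubling of the signal. The signal of 1 probe set says little about that of another, so each gene is set against the genes of olfactory receptors, which few tissues other than the nose transcribe. A gene below the 95th percentile of the 341 olfactory receptor genes (6.22) on all 8 arrays is called dim here. Replicates lay close together in 3 groups and farther apart with progesterone. The SD across all genes of the gap between replicates was 0.17 log2 units with the combination, 0.16 with RU-486, 0.35 with progesterone and 0.18 with vehicle. Of the 99 members, 7 differed by more than 0.5 log2 units between the progesterone replicates, 0 between the replicates of the combination and of RU-486, and 1 between those of vehicle. Of 11 astrocyte and glioma markers, 8 lay above 6.22 on every array, among them VIM (mean 13.4), SOX2 (12.0), SOX9 (10.9) and GFAP (7.54), while AQP4 (4.19) and SLC1A2 (5.21) were dim. Of the 13 leukocyte and microglia markers 6 were dim, including PTPRC and AIF1, as were 3 of 8 endothelial markers, including PECAM1 and KDR, and 6 of 9 fibroblast and pericyte markers, including DCN, LUM, PDGFRA and FAP. Other markers of these lists were above 6.22 on every array. They were 4 leukocyte and microglia markers (CD68, mean 10.6, TYROBP, 7.60, ITGAE and ITGAD) and 2 endothelial markers (CDH5, 8.57, and CLDN5, 7.76). A further 3 were fibroblast and pericyte markers (THY1, ACTA2 and PDGFRB). Dim counts were 1 of 7 for neuron markers, 4 of 7 for oligodendrocyte markers and 3 of 8 for epithelial markers, with 6, 2 and 5 above 6.22 on every array.

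Much of the matrix machinery was above background in these cells, in a share no higher than that of all genes. Of the 99 members, 61 were above 6.22 on every array, beside 12744 of all 18417 genes. Another 27 were dim on every array, or 27.3% of members beside 23.9% of all genes. All 4 TIMPs and 8 of 10 laminins were above 6.22 throughout, as were 13 of 20 integrins and 27 of 43 collagens. Of the 22 MMPs, 9 were above it throughout and 11 were dim, beside 10 dim chains of 43 collagens, 2 of 10 laminins and 4 of 20 integrins.

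**Figure D1:**
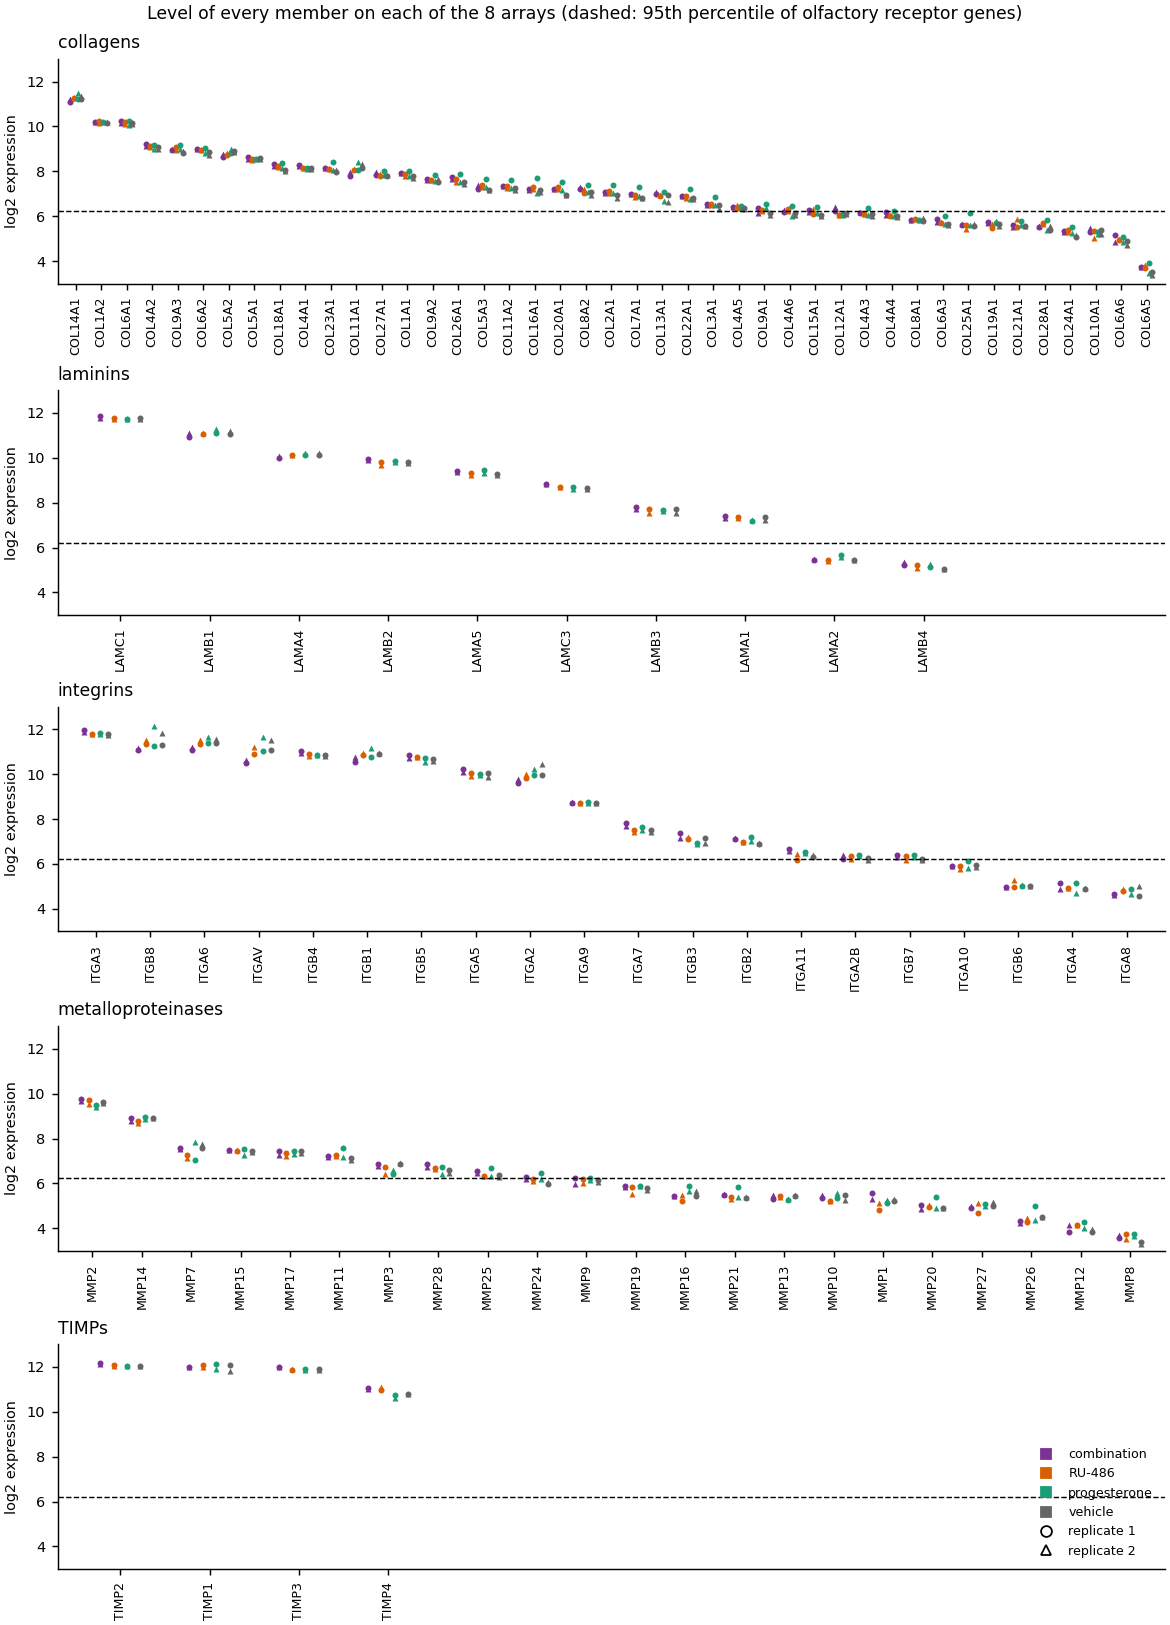
Log2 expression (vertical axis) of all 99 members on each array, by family and sorted by mean level. Colours give the treatment, circles replicate 1 and triangles replicate 2, and the dashed line is the 95th percentile of olfactory receptor genes (6.22). All 4 TIMPs lie above the line, and 11 of 22 MMPs lie below it on every array.

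No member passed the test in any comparison. Differences were fitted with limma on all 8 arrays and adjusted over all 18417 genes, with an adjusted p under 0.05 as the threshold for a call. In the average RU-486 effect, which sets the 4 arrays with RU-486 against the 4 without, 0 of 99 members were called, beside 6 of all genes (0.0326%). In the average progesterone effect, the interaction, the F test over the 4 groups and the 5 pairwise comparisons, 0 of 99 members were called, and 0% of all genes. At an unadjusted p under 0.05, members numbered 12 of 99 (12.1%) for the combination against vehicle (13.2% of all genes), 4 (4.04%) for RU-486 against vehicle (3.1% of all genes) and 9 (9.09%) for progesterone against vehicle (6.13% of all genes). For the combination against progesterone there were 9 members (9.09%, beside 14.6% of all genes). For the combination against RU-486 there were 4 (4.04%, beside 4.75% of all genes). The average RU-486 effect had 6 members (6.06%, beside 11% of all genes). The average progesterone effect had 6 (6.06%, beside 5.03% of all genes). The interaction had 4 (4.04%, beside 5.28% of all genes) and the F test 5 (5.05%, beside 7.63% of all genes). What follows therefore describes values and gives each limma test as one that was not passed.

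Sizes were small as well. Fewer cells of a type and less RNA per cell cannot be told apart in such bulk RNA. A difference of at least 0.5 log2 units with no overlap between the 2 groups' arrays was seen for 2 members in the combination against vehicle, ITGAV and ITGA2, both lower (2.02% of members, 5.01% of all genes lower). It was seen for 2 members in the combination against progesterone, ITGAV and ITGB8, both lower (2.02% of members, 3.11% of all genes lower). No member was that much higher in either comparison, beside 0.25% of all genes for the combination against vehicle and 0.63% for the combination against progesterone. No member met this rule for RU-486 against vehicle (0.195% of all genes higher, 0.353% lower). The count was also 0 of 99 for progesterone against vehicle (0.25% higher, 0.288% lower) and for the combination against RU-486 (0.0434% higher, 0.934% lower).

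**Figure D2:**
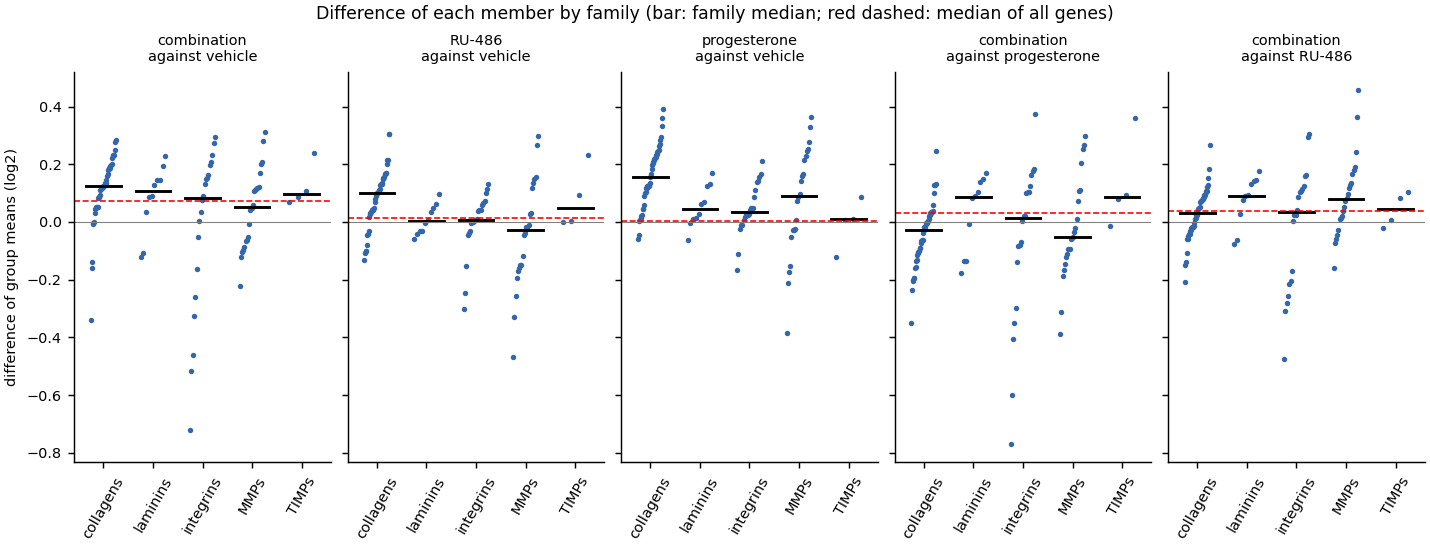
Difference of group means in log2 units (vertical axis) for each member, by family, in the 5 pairwise comparisons, with 2 arrays a group. Points are genes, black bars are family medians, and the red dashed line is the median of all genes. The lowest points are integrin subunits, with ITGAV 0.72 log2 units below vehicle and 0.77 below progesterone on the combination arrays.

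Collagens were mostly a little higher than vehicle in each treated group, and 1 progesterone array held most of the height in its group. The median difference of the 43 chains from vehicle was 0.12 for the combination (38 above 0, all-gene median 0.07), 0.10 for RU-486 (35 above 0, all-gene median 0.01) and 0.16 for progesterone (41 above 0, all-gene median 0.00). Against progesterone the median of the combination was -0.03, with 15 of 43 chains above 0 (all-gene median 0.03). Chains whose 2 combination arrays both lay above both vehicle arrays numbered 29 of 43, or 67.4%, beside 42.7% of all genes. With RU-486 they numbered 23 of 43 (24% of all genes) and with progesterone 17 of 43 (16.3% of all genes). Chains separated downwards from vehicle were 3 with the combination (18.8% of all genes), 4 with RU-486 (15.7%) and 1 with progesterone (15.8%). On progesterone replicate 1 the median collagen lay 0.30 above the vehicle mean (39 of 43 chains above it, beside 10542 of 18417 genes). On that array 29 of 43 chains had their highest value of all 8 arrays. The same held for 5022 of 18417 genes and for 146 of 341 olfactory receptor genes. Progesterone replicate 2 had a median of 0.03 above the vehicle mean (30 of 43 chains above it, beside 8294 of 18417 genes). Olfactory receptor genes moved with it: their median was 0.19 above the vehicle mean on progesterone replicate 1 (292 of 341 genes) and -0.01 on replicate 2. Its part in the collagen values was not tested. Over all genes the same medians were 0.04 and -0.02. With the combination the collagen medians were 0.13 and 0.12 on the 2 arrays, and those of olfactory receptors 0.08 and 0.05. With RU-486 they were 0.08 and 0.06, beside 0.04 and 0.07 for olfactory receptors.

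**Figure D3:**
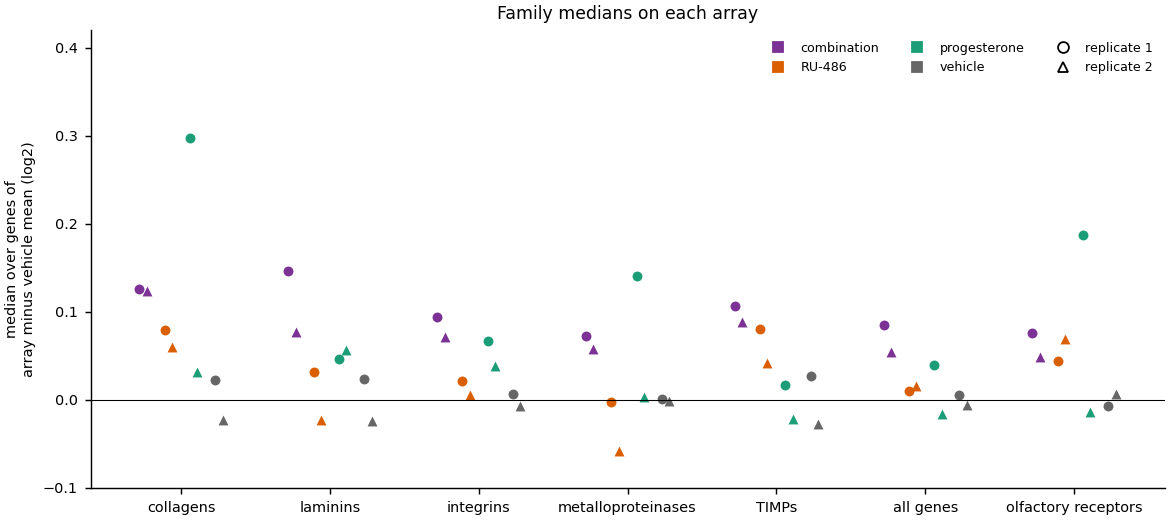
Median over the genes of a family of the array value minus the vehicle mean (vertical axis, log2 units), for each array, with all genes and olfactory receptor genes at the right. Colours give the treatment and symbols the replicate. Collagens lie at 0.30 on progesterone replicate 1 and at 0.03 on replicate 2, and olfactory receptors at 0.19 and -0.01.

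Which chains passed depended on that array. Without progesterone replicate 2, 16 members passed for progesterone against vehicle (limma adjusted p under 0.05), beside 6.67% of all genes, in a fit that assumes that the lone array varies like the other groups. They were 10 higher collagens (COL2A1, COL3A1, COL5A3, COL6A5, COL7A1, COL16A1, COL20A1, COL22A1, COL23A1 and COL25A1), 5 higher MMPs (MMP11, MMP20, MMP21, MMP24 and MMP26) and 1 lower MMP, MMP7. Of these, COL6A5, COL25A1, MMP20, MMP21 and MMP26 were dim. The differences of the 10 collagens ran from 0.38 for COL23A1 to 0.59 for COL20A1. Without progesterone replicate 1, 0 members passed, and the collagen median was 0.03.

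The chains with the highest signal differed little between groups. COL14A1, which coats the surface of fibrils, was at 11.09 and 11.22 with the combination, 11.26 and 11.26 with RU-486, 11.20 and 11.50 with progesterone, and 11.23 and 11.35 with vehicle. COL1A2, a chain of fibrillar collagen I, was at 10.21 and 10.20 with the combination, 10.25 and 10.17 with RU-486, 10.19 and 10.19 with progesterone, and 10.15 and 10.18 with vehicle. The combination arrays were just below both vehicle arrays for COL14A1 and just above them for COL1A2, whose 8 values spanned less than the gap between the COL14A1 progesterone replicates. COL6A1, a chain of the beaded filaments of collagen VI, was at 10.22 and 10.15 with the combination, 10.20 and 10.12 with RU-486, 10.24 and 10.06 with progesterone, and 10.16 and 10.10 with vehicle, with every group overlapping vehicle. For these 3 genes the limma F test over the 4 groups gave adjusted p from 0.738 to 0.969.

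Of the chains with the smallest p, COL9A1 and COL12A1 lay close to the background level. COL20A1, a collagen of the fibril-associated type, was at 7.22 and 7.23 with the combination, 7.29 and 7.22 with RU-486, 7.53 and 7.15 with progesterone, and 6.95 and 6.95 with vehicle. Every treated array lay above both vehicle arrays, and progesterone replicate 1 lay highest. The difference from vehicle was 0.28 ± 0.13 (SE) for the combination, 0.31 ± 0.13 for RU-486 and 0.39 ± 0.13 for progesterone (limma adjusted p = 0.386, 1.00 and 0.741 in that order). COL9A1, a fibril-associated chain known from cartilage, was at 6.39 and 6.12 with the combination, 6.28 and 6.21 with RU-486, 6.53 and 6.38 with progesterone, and 6.13 and 6.06 with vehicle. Its progesterone arrays lay above both vehicle arrays, by 0.36 ± 0.11 on average (limma adjusted p = 0.741). COL12A1, another fibril-associated collagen, was at 6.23 and 6.39 with the combination, 6.05 and 6.04 with RU-486, 6.09 and 6.04 with progesterone, and 6.15 and 6.10 with vehicle. Only the combination arrays stood clear of the other 6, by 0.27 ± 0.09 over RU-486 and 0.25 ± 0.09 over progesterone (limma adjusted p = 0.769 and 0.294). COL11A1, a minor chain of fibrils, was at 7.81 and 7.97 with the combination, 8.07 and 8.12 with RU-486, 8.06 and 8.42 with progesterone, and 8.14 and 8.31 with vehicle. Its combination arrays were the 2 lowest of the 8, with a difference of -0.35 ± 0.13 from progesterone and -0.34 ± 0.13 from vehicle (limma adjusted p = 0.315 and 0.374). Without progesterone replicate 1 COL11A1 passed against progesterone, at -0.53 ± 0.11 (limma adjusted p = 0.0474). Fibroblast and pericyte markers moved a little too: the log2 of their summed signal (9 genes) ran from 11.27 to 11.35 with the combination, 11.09 to 11.21 with RU-486, 11.12 to 11.20 with progesterone and 11.13 to 11.19 with vehicle, with 6 of the 9, DCN, LUM, PDGFRA, FAP, RGS5 and POSTN, dim on every array. The other 3 were above 6.22 on every array and carry most of that sum: THY1 (mean 10.6), ACTA2 (8.66) and PDGFRB (7.78). The endothelial sum (8 genes) ran from 9.95 to 10.02, 9.83 to 9.91, 9.77 to 9.88 and 9.83 to 9.85 in the same order. Their part in the matrix values was not tested.

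The collagen IV genes lie in pairs that are read outwards from a shared promoter. COL4A1 and COL4A2, the main chains of the basement membrane network, were chosen here for this arrangement after their values were seen. COL4A1 was at 8.30 and 8.23 with the combination, 8.16 and 8.16 with RU-486, 8.17 and 8.11 with progesterone, and 8.17 and 8.10 with vehicle. COL4A2 was at 9.24 and 9.13 with the combination, 9.12 and 9.09 with RU-486, 9.18 and 8.99 with progesterone, and 9.07 and 9.01 with vehicle. The combination arrays were the 2 highest for COL4A1, whereas for COL4A2 progesterone replicate 1 lay between them, and neither gene passed against vehicle (limma adjusted p = 0.437 and 0.46). Promoter windows of 300 bases, 250 before the annotated start and 50 from it, came from RefSeq (GRCh38.p14) and matched 67 of the 99 members. The starts of COL4A1 and COL4A2 lay 127 bases apart, and the windows shared 226 bases. COL4A3 with COL4A4 shared 82 bases (starts 419 apart), and COL4A5 with COL4A6 shared 121 (starts 380 apart). The window of COL4A2 (chr13:110307034-110307333, plus strand) is shown with the bases that COL4A1 uses on the other strand in capitals.
COL4A2: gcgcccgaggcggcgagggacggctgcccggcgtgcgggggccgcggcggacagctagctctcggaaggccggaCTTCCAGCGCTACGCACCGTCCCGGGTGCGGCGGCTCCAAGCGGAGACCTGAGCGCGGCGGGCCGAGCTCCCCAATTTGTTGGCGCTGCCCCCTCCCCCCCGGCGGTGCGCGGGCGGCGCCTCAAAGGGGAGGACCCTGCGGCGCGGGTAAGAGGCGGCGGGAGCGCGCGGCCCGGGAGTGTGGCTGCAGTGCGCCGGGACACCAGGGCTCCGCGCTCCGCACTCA

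Laminins were nearly level, with the combination slightly above vehicle in most chains. The median difference of the 10 chains from vehicle was 0.11 for the combination (8 above 0, all-gene median 0.07), 0.00 for RU-486 (5 above 0, all-gene median 0.01) and 0.04 for progesterone (8 above 0, all-gene median 0.00). For the combination against vehicle the arrays were separated upwards in 7 of 10 chains (42.7% of all genes) and downwards in 1, LAMA4 (18.8% of all genes). LAMC1, the common gamma chain, was at 11.85 and 11.79 with the combination, 11.76 and 11.71 with RU-486, 11.72 and 11.74 with progesterone, and 11.76 and 11.71 with vehicle. LAMB1, its beta partner, was at 10.94 and 11.08 with the combination, 11.07 and 11.11 with RU-486, 11.10 and 11.27 with progesterone, and 11.06 and 11.17 with vehicle. LAMA4, an alpha chain of vascular basement membrane, was at 10.00 and 10.09 with the combination, 10.10 and 10.11 with RU-486, 10.13 and 10.23 with progesterone, and 10.13 and 10.21 with vehicle. LAMC1 was highest on the combination arrays and LAMA4 lowest on them, while LAMB1 overlapped vehicle, and the largest of the 3 differences from vehicle was -0.12 ± 0.08 (limma adjusted p = 0.479). LAMC3, a gamma chain, was at 8.83 and 8.84 with the combination, 8.68 and 8.70 with RU-486, 8.71 and 8.62 with progesterone, and 8.67 and 8.61 with vehicle, with both combination arrays above all others and a difference from vehicle of 0.19 ± 0.08 (limma adjusted p = 0.374). The dim chains LAMB4 and LAMA2 (the alpha chain known from muscle) had the other small p-values. LAMB4 was at 5.24 and 5.34 with the combination, 5.21 and 5.10 with RU-486, 5.13 and 5.25 with progesterone, and 5.06 and 5.06 with vehicle, so that all 6 treated arrays lay above vehicle. LAMA2 was at 5.47 and 5.49 with the combination, 5.43 and 5.38 with RU-486, 5.67 and 5.57 with progesterone, and 5.43 and 5.46 with vehicle, highest with progesterone. LAMB4 differed from vehicle by 0.23 ± 0.09 with the combination and LAMA2 by 0.17 ± 0.08 with progesterone (limma adjusted p = 0.374 and 0.741).

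Integrins split by subunit. ITGAV, ITGB8, ITGA2, ITGA6 and ITGB1 had their lowest group mean with the combination, while ITGA7, ITGA11, ITGB2 and ITGB3 had their highest there. The 20 subunits had a median difference from vehicle of 0.08 for the combination, 0.01 for RU-486 and 0.03 for progesterone, with 13, 12 and 15 above 0. For the combination against vehicle, 9 of 20 were separated upwards and 6 of 20 downwards, beside 42.7% and 18.8% of all genes. Against progesterone the combination was separated upwards in 7 (28.1% of all genes) and downwards in 6 (12.6%), and against RU-486 upwards in 6 (33.3%) and downwards in 6 (17.1%).

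ITGAV, the alpha subunit that with several beta partners binds vitronectin, fibronectin and latent TGF-beta, had the largest difference of any member. Its values were 10.49 and 10.65 with the combination, 10.88 and 11.21 with RU-486, 11.01 and 11.67 with progesterone, and 11.06 and 11.53 with vehicle. Both combination arrays lay below the other 6, the RU-486 and vehicle arrays overlapped, and replicate 2 was the higher in every group. The combination differed by -0.72 ± 0.24 from vehicle (0.607-fold), -0.77 ± 0.24 from progesterone (0.587-fold) and -0.47 ± 0.24 from RU-486. The limma adjusted p was 0.374, 0.279 and 0.769 in that order. Over all arrays with RU-486 against those without, the difference was -0.51 ± 0.17 (limma adjusted p = 0.427). ITGB8, a beta partner of ITGAV that presents latent TGF-beta, was at 11.08 and 11.16 with the combination, 11.34 and 11.51 with RU-486, 11.26 and 12.17 with progesterone, and 11.31 and 11.84 with vehicle. It too was lowest on the combination arrays, and progesterone replicate 2 was higher than every other array. The combination differed by -0.60 ± 0.29 from progesterone and -0.46 ± 0.29 from vehicle (limma adjusted p = 0.383 and 0.46). Without progesterone replicate 1, ITGAV (-1.10 ± 0.21, limma adjusted p = 0.0433) and ITGB8 (-1.05 ± 0.20, limma adjusted p = 0.0433) passed for the combination against progesterone, as did COL11A1 and TIMP4, 4 members in all beside 5.92% of all genes. Without progesterone replicate 2, 0 members passed that comparison.

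**Figure D4:**
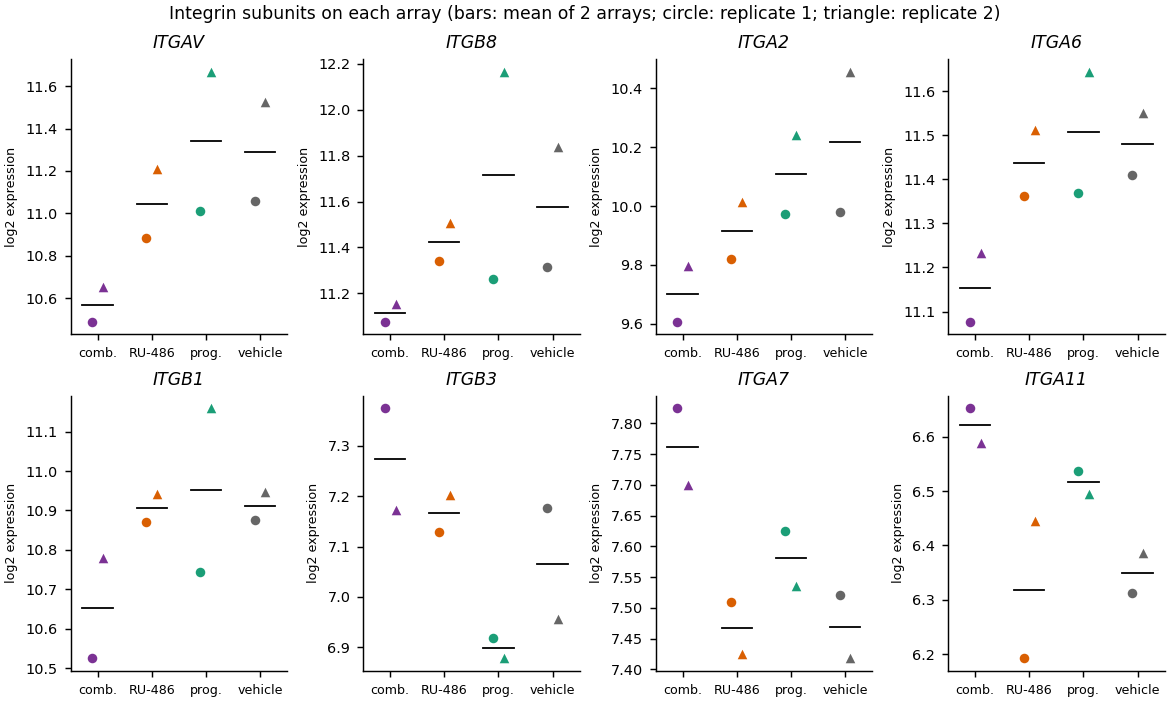
Log2 expression (vertical axis, a separate range for each gene) of 8 integrin subunits on each array, from the combination at the left to vehicle at the right. Bars are means of 2 arrays, circles replicate 1 and triangles replicate 2. ITGAV lies at 10.49 and 10.65 on the combination arrays and between 10.88 and 11.67 on the other 6.

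ITGA2, the collagen-binding partner of ITGB1, was at 9.61 and 9.80 with the combination, 9.82 and 10.02 with RU-486, 9.97 and 10.24 with progesterone, and 9.98 and 10.46 with vehicle. Of the 4 arrays with RU-486, 3 lay below every array without it, and RU-486 replicate 2 lay above the replicate 1 arrays of progesterone and vehicle. The combination differed from vehicle by -0.52 ± 0.18 (0.699-fold, limma adjusted p = 0.374), and the average RU-486 effect was -0.35 ± 0.12 (limma adjusted p = 0.432). ITGB1, the beta subunit shared by most matrix receptors, was at 10.52 and 10.78 with the combination, 10.87 and 10.94 with RU-486, 10.74 and 11.16 with progesterone, and 10.88 and 10.95 with vehicle. Its combination replicate 2 lay above progesterone replicate 1, so those groups overlapped, and the difference from RU-486 was -0.26 ± 0.15 (limma adjusted p = 0.769). ITGA6, a laminin-binding subunit and a marker of glioma stem cells, was at 11.08 and 11.23 with the combination, 11.36 and 11.51 with RU-486, 11.37 and 11.64 with progesterone, and 11.41 and 11.55 with vehicle. Both combination arrays lay below the other 6, by -0.35 ± 0.12 against progesterone, -0.33 ± 0.12 against vehicle and -0.28 ± 0.12 against RU-486 (limma adjusted p = 0.297, 0.374 and 0.769). In all of these 5 subunits replicate 2 was above replicate 1 in each group, and the combination was the lowest group within each replicate number. ITGA3, a laminin receptor subunit and the integrin with the highest signal, was at 11.98 and 11.86 with the combination, 11.80 and 11.81 with RU-486, 11.85 and 11.78 with progesterone, and 11.81 and 11.73 with vehicle, with the 2 combination arrays highest and a difference of 0.15 ± 0.08 from vehicle (limma adjusted p = 0.424).

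The window of ITGA6 (chr2:172427086-172427385, plus strand) is shown because it was the only window among the named members with 2 copies of AGAACA, the hexamer that steroid receptors for progesterone, glucocorticoids and androgens bind as part of a longer element. Capitals mark the 2 copies, which begin 195 and 81 bases before the start, and a TATA box read on the other strand 32 bases before it. AGAACA or its reverse complement TGTTCT was found in 14.85% of 27305 windows of the same length, and in 11 of the 67 member windows (16.4%). TATAAA or TTTATA was found in 11.95% of all windows and in 11 of 67 (16.4%). These motifs do not overlap each other in the window.
ITGA6: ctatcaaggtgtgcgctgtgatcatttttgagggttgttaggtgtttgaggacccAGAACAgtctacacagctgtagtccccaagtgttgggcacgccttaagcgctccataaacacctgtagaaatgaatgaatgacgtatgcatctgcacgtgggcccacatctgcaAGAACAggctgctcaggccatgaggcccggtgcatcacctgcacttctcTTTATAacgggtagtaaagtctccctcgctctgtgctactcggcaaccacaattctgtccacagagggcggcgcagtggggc

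The 4 other named subunits had their highest mean with the combination. ITGA7, a laminin receptor subunit known from muscle, was at 7.82 and 7.70 with the combination, 7.51 and 7.43 with RU-486, 7.63 and 7.54 with progesterone, and 7.52 and 7.42 with vehicle. Both combination arrays lay above the other 6, by 0.30 ± 0.09 against RU-486 and 0.29 ± 0.09 against vehicle (limma adjusted p = 0.769 and 0.374). ITGA11, a receptor subunit for fibrillar collagens, was at 6.65 and 6.59 with the combination, 6.19 and 6.44 with RU-486, 6.54 and 6.49 with progesterone, and 6.31 and 6.39 with vehicle. All 4 arrays with progesterone were above the 4 without it, as in 6 of 99 members (6.06%, beside 2.02% of all genes, and 0 members and 0.836% of all genes in the opposite direction), and the average progesterone effect was 0.23 ± 0.07 (limma adjusted p = 0.722). ITGB2, the beta subunit of leukocyte integrins, was at 7.12 and 7.16 with the combination, 6.98 and 6.98 with RU-486, 7.21 and 7.03 with progesterone, and 6.89 and 6.93 with vehicle. Its arrays with progesterone again lay above all those without, by 0.19 ± 0.06 (limma adjusted p = 0.722), while of its 4 leukocyte partners ITGAM and ITGAL were dim on every array, ITGAX ran from 5.70 to 6.26, and ITGAD was above 6.22 on every array (6.49 to 6.86). The summed log2 signal of the 13 leukocyte and microglia markers was 11.20 to 11.22 with the combination, 11.17 to 11.19 with RU-486, 11.06 to 11.32 with progesterone and 11.06 to 11.11 with vehicle. Its part in the ITGB2 values was not tested. ITGB3, a beta partner of ITGAV that binds vitronectin, was at 7.37 and 7.17 with the combination, 7.13 and 7.20 with RU-486, 6.92 and 6.88 with progesterone, and 7.18 and 6.96 with vehicle. Its 2 progesterone arrays were the lowest of the 8, and vehicle overlapped both other groups. The combination was 0.37 ± 0.11 above progesterone and the average RU-486 effect was 0.24 ± 0.08 (limma adjusted p = 0.274 and 0.424).

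MMPs separated from vehicle in both directions, and MMP3, MMP7 and MMP14 were among the lower ones with RU-486. MMP3 was also lower with progesterone, and the combination was nearer to vehicle than RU-486 was in each of these genes. With RU-486, 6 of 22 MMPs were separated upwards and 6 downwards (24% and 15.7% of all genes). With progesterone these counts were 6 and 3 (16.3% and 15.8%), and with the combination 10 and 2 (42.7% and 18.8%). The family had a median difference from vehicle of 0.05 for the combination, -0.03 for RU-486 and 0.09 for progesterone, with 13, 8 and 14 of 22 above 0 (all-gene medians 0.07, 0.01 and 0.00). The progesterone median was 0.01 over the 11 MMPs that were not dim, with 6 above 0. Without progesterone replicate 1 the median of the 22 was 0.0036 (11 above 0), and without vehicle replicate 1 it was 0.142 (15 above 0). MMP3 (stromelysin-1), which cuts many matrix proteins and activates other MMPs, was at 6.86 and 6.76 with the combination, 6.72 and 6.41 with RU-486, 6.41 and 6.61 with progesterone, and 6.87 and 6.91 with vehicle. The RU-486 and progesterone arrays were all below the combination and vehicle arrays, and the combination arrays were just below vehicle. The difference from vehicle was -0.09 ± 0.12 for the combination, -0.33 ± 0.12 for RU-486 and -0.38 ± 0.12 for progesterone (limma adjusted p = 0.714, 1.00 and 0.741). The interaction, the effect of RU-486 with progesterone minus that without it, was 0.63 ± 0.17, with an unadjusted p of 0.00868 and a limma adjusted p of 0.828. MMP1, the interstitial collagenase, was dim, at 5.58 and 5.31 with the combination, 4.83 and 5.14 with RU-486, 5.12 and 5.27 with progesterone, and 5.20 and 5.30 with vehicle. Its combination arrays were the 2 highest, the RU-486 arrays lay below vehicle, and the interaction was 0.51 ± 0.19 (limma adjusted p = 0.828). MMP7 (matrilysin), a small protease without the hemopexin domain of its relatives, was at 7.57 and 7.52 with the combination, 7.26 and 7.11 with RU-486, 7.05 and 7.83 with progesterone, and 7.56 and 7.74 with vehicle. Its RU-486 arrays lay below vehicle by -0.47 ± 0.23 (limma adjusted p = 1.00), but the progesterone replicates held the highest and the lowest value of the 8. The average RU-486 effect on MMP7 was -0.18 ± 0.16 (limma adjusted p = 0.688) on all arrays, -0.37 ± 0.07 (limma adjusted p = 0.0415) without progesterone replicate 1 and 0.013 without progesterone replicate 2 (limma adjusted p = 0.952). For progesterone against vehicle MMP7 was at -0.21 ± 0.23 (limma adjusted p = 0.84) on all arrays and at 0.175 without progesterone replicate 1 (limma adjusted p = 0.761). Without progesterone replicate 2 MMP7 was 0.60 below vehicle with progesterone, at -0.60 ± 0.11 (limma adjusted p = 0.0436).

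Windows of MMP7 (chr11:102530698-102530997, minus strand) and MMP10 (chr11:102780579-102780878, minus strand) are shown because they share a layout of 2 motifs. The MMP7 window also holds 1 copy of AGAACA, left unmarked, at position 22 counted from the start, and the MMP10 window holds 0. Capitals mark a match to TGANTCA, a loose form of the AP-1 motif with any middle base, which begins 67 bases before the start in both. The match is TGAGTCA in MMP7 and TGAATCA in MMP10, and binding of AP-1 to either was not tested. Capitals also mark the TATA box, which begins 30 bases before the start in MMP7 and 31 in MMP10. AP-1 is the factor through which the glucocorticoid receptor is known to repress several MMP genes. TGANTCA, searched on both strands, was found in 7.76% of all windows, in 3 of 11 MMP windows (MMP7, MMP10 and MMP20) and in 4 of the 67 member windows. TATAAA or TTTATA, at any position, was found in 6 of the 11 MMP windows, beside 11.95% of all. Relative to the start it began at -30 in MMP7, -31 in MMP10 and -28 in MMP26. In MMP20, MMP21 and MMP8 it lay farther off, at -72, -92 and -110. MMP10 (stromelysin-2), chosen for its window, was dim, at 5.34 and 5.49 with the combination, 5.24 and 5.21 with RU-486, 5.34 and 5.59 with progesterone, and 5.50 and 5.24 with vehicle, and its RU-486 arrays were the 2 lowest by a margin smaller than the gap between the vehicle replicates.
MMP7: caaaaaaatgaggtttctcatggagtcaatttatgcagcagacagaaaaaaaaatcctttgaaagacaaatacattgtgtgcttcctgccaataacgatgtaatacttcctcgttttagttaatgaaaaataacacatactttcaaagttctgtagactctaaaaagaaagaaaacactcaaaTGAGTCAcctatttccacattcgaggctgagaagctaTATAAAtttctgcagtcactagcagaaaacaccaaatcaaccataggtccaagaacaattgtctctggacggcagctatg
MMP10: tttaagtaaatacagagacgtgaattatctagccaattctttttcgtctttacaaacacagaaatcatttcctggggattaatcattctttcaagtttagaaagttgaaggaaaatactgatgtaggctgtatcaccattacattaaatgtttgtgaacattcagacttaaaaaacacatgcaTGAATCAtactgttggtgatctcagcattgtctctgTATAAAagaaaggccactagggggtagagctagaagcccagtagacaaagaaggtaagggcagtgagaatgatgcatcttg

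**Figure D5:**
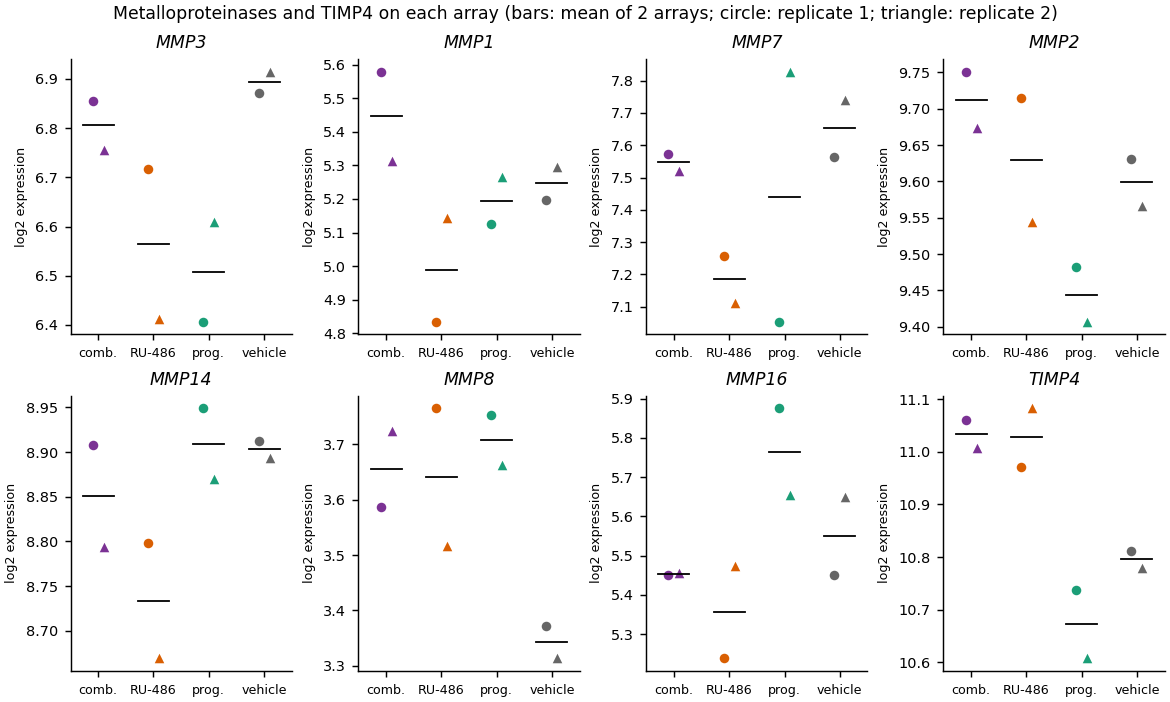
Log2 expression (vertical axis, a separate range for each gene) of 7 metalloproteinases and TIMP4 on each array, from the combination at the left to vehicle at the right. Bars are means of 2 arrays, circles replicate 1 and triangles replicate 2. MMP3 lies between 6.41 and 6.72 with either steroid alone and between 6.76 and 6.91 with both or with vehicle.

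The gelatinase MMP2 and the membrane-type MMP14 were above background on every array. MMP2 (gelatinase A) was at 9.75 and 9.67 with the combination, 9.72 and 9.54 with RU-486, 9.48 and 9.41 with progesterone, and 9.63 and 9.57 with vehicle. Its progesterone arrays were the 2 lowest, and the combination was 0.27 ± 0.09 above progesterone (limma adjusted p = 0.289). MMP14, the membrane-type protease that activates pro-MMP2, was at 8.91 and 8.79 with the combination, 8.80 and 8.67 with RU-486, 8.95 and 8.87 with progesterone, and 8.91 and 8.89 with vehicle. Its RU-486 arrays lay below both progesterone and both vehicle arrays, by -0.17 ± 0.09 against vehicle (limma adjusted p = 1.00). MMP9 (gelatinase B), known from malignant gliomas and chosen here for that, was at 6.23 and 5.99 with the combination, 6.18 and 6.01 with RU-486, 6.26 and 6.14 with progesterone, and 6.17 and 6.06 with vehicle, and all groups overlapped.

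The other MMPs among the named members were dim. MMP24, which was above 6.22 on 2 arrays and so not dim, also had an unadjusted limma p under 0.05 in 2 comparisons. These were progesterone against vehicle (0.33 higher, limma adjusted p = 0.741) and the average progesterone effect. MMP8, the neutrophil collagenase, was at 3.59 and 3.72 with the combination, 3.76 and 3.52 with RU-486, 3.75 and 3.66 with progesterone, and 3.37 and 3.31 with vehicle, below the median of olfactory receptor genes (4.64) on every array. Its 6 treated arrays all lay above vehicle, by 0.31 ± 0.11 for the combination, 0.30 ± 0.11 for RU-486 and 0.36 ± 0.11 for progesterone (limma adjusted p = 0.374, 1.00 and 0.741). MMP16, a membrane-type enzyme, was at 5.45 and 5.46 with the combination, 5.24 and 5.47 with RU-486, 5.88 and 5.65 with progesterone, and 5.45 and 5.65 with vehicle, and the average RU-486 effect was -0.25 ± 0.09 (limma adjusted p = 0.427). A second, dimmer MMP16 probe set had 3.74 and 3.94 with the combination, 4.11 and 4.24 with RU-486, 4.03 and 4.35 with progesterone, and 4.23 and 4.50 with vehicle, so progesterone was highest in the first probe set and not in the second. MMP13 (collagenase-3) was at 5.29 and 5.49 with the combination, 5.45 and 5.38 with RU-486, 5.27 and 5.29 with progesterone, and 5.45 and 5.46 with vehicle, with both progesterone arrays below both vehicle arrays and an average progesterone effect of -0.10 ± 0.06 (limma adjusted p = 0.722).

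TIMP4 had the smallest p of any member, and the other 3 inhibitors were level in the probe sets chosen for them. TIMP4, the inhibitor with the most restricted tissue range, was at 11.06 and 11.01 with the combination, 10.97 and 11.08 with RU-486, 10.74 and 10.61 with progesterone, and 10.81 and 10.78 with vehicle. All 4 arrays with RU-486 lay above all 4 without it, as in 2 of 99 members (2.02%, the other being ITGB5, beside 4.51% of all genes). In the opposite direction the count was 2 of 99, COL5A2 and LAMA4 (1.09% of all genes). The average RU-486 effect was 0.30 ± 0.06 (1.23-fold), with an unadjusted p of 0.00166 and a limma adjusted p of 0.283. The combination was 0.36 ± 0.09 above progesterone and 0.24 ± 0.09 above vehicle, and RU-486 alone was 0.23 ± 0.09 above vehicle (limma adjusted p = 0.266, 0.374 and 1.00). Both progesterone arrays lay below both vehicle arrays, by -0.12 ± 0.09 (limma adjusted p = 0.771). Without progesterone replicate 1 TIMP4 passed for the average RU-486 effect, at 0.33 ± 0.06 (limma adjusted p = 0.0408), with ITGAV (-0.67 ± 0.14, limma adjusted p = 0.0462) and MMP7, 3 members beside 5.42% of all genes. It also passed then for the combination against progesterone, at 0.43 ± 0.09 (limma adjusted p = 0.0467). Without any other array no member passed the average RU-486 effect.

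TIMP2, which also takes part in the activation of pro-MMP2, was at 12.16 and 12.12 with the combination, 12.08 and 12.03 with RU-486, 12.06 and 12.06 with progesterone, and 12.05 and 12.06 with vehicle. TIMP1 was at 12.01 and 12.01 with the combination, 12.07 and 11.99 with RU-486, 12.15 and 11.90 with progesterone, and 12.06 and 11.81 with vehicle. TIMP3, the inhibitor that stays bound to the matrix, was at 11.98 and 11.99 with the combination, 11.85 and 11.91 with RU-486, 11.91 and 11.88 with progesterone, and 11.92 and 11.84 with vehicle. The combination arrays were the 2 highest for TIMP2 and TIMP3, and for TIMP1 all groups overlapped vehicle. In these chosen probe sets, differences of the 3 genes from vehicle ran from 0.00 to 0.11 in all treated groups (limma adjusted p of 0.502 or more). A second TIMP3 probe set had 9.42 and 9.44 with the combination, 9.35 and 9.47 with RU-486, 8.98 and 9.19 with progesterone, and 9.46 and 9.33 with vehicle, so its lowest arrays were those of progesterone and its combination arrays lay within the range of vehicle. The window of TIMP4 (chr3:12158863-12159162, minus strand) is shown since this gene separated by RU-486 on every array. It held no AGAACA and no TATAAA, and its capitals mark the GC box GGGCGG, which begins 57 bases before the start. GGGCGG or CCGCCC was found in 44.6% of all windows and in 37 of the 67 member windows.
TIMP4: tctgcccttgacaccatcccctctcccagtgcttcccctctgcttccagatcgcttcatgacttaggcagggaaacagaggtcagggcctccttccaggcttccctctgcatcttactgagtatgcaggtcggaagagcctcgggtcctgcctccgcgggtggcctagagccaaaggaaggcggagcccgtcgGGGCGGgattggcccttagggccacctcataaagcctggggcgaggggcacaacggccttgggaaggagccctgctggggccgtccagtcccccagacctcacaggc

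Opposite directions of RU-486 with and without progesterone were seen in 4 of 99 members (4.04%), beside 967 of all genes (5.25%). MMP3, MMP1 and COL12A1 were higher with the combination than with progesterone alone and lower with RU-486 than with vehicle, with no overlap between arrays in either comparison. COL9A3, a fibril-associated chain, went the other way: it was at 8.97 and 9.01 with the combination, 9.07 and 8.93 with RU-486, 9.17 and 9.02 with progesterone, and 8.82 and 8.91 with vehicle. None of these 4 passed the interaction test.

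Partners outside the 5 families were read from 5 lists, in which 0 genes passed limma in any comparison. Of 27 genes for collagen synthesis and cross-linking, 23 were above 0 for the combination against vehicle (median 0.11), and 10 of 12 basement membrane partners were (median 0.11). The counts were 20 of 24 for other integrin ligands (median 0.13), 17 of 21 for the adhesion complex (median 0.11) and 14 of 20 for other proteases and inhibitors (median 0.04), beside an all-gene median of 0.07 with 67.5% of all genes above 0. For progesterone against vehicle the adhesion complex had 5 of 21 above 0 (median -0.06) and other proteases and inhibitors 7 of 20 (median -0.05), beside 51.2% of all genes above 0. The counts there were 19 of 27 for collagen synthesis (median 0.02), 9 of 12 for basement membrane partners (median 0.03) and 15 of 24 for other integrin ligands (median 0.02). For RU-486 against vehicle the 5 counts were 19 of 27, 6 of 12, 18 of 24, 8 of 21 and 10 of 20, with medians from -0.02 for other proteases to 0.04 for collagen synthesis, beside 55.3% of all genes above 0. PLOD2, a lysyl hydroxylase that prepares collagen for cross-linking, had 10.20 and 10.49 with the combination, 10.82 and 10.92 with RU-486, 10.75 and 11.38 with progesterone, and 10.84 and 11.24 with vehicle. Both combination arrays lay below the other 6, by -0.70 ± 0.22 against vehicle and -0.72 ± 0.22 against progesterone (limma adjusted p = 0.374 and 0.279). ADAMTS9, a secreted protease that cuts proteoglycans, had 9.47 and 9.30 with the combination, 9.18 and 9.48 with RU-486, 8.79 and 8.60 with progesterone, and 9.13 and 9.08 with vehicle. All 4 arrays with RU-486 were above all 4 without it, as for TIMP4, with an average RU-486 effect of 0.45 ± 0.09 (limma adjusted p = 0.276). CTSL, a lysosomal protease also found outside cells, was 0.41 ± 0.09 above progesterone with the combination (limma adjusted p = 0.255). SPP1 (osteopontin), a ligand of ITGAV with ITGB3, had 10.89 and 10.72 with the combination, 10.68 and 10.69 with RU-486, 10.55 and 10.24 with progesterone, and 10.80 and 10.66 with vehicle. Its progesterone arrays were the 2 lowest, as they were for ITGB3, and the combination was 0.41 ± 0.12 above them (limma adjusted p = 0.277). P3H4 is of the collagen prolyl hydroxylase family, BCAM is a laminin receptor, and FERMT1 and TLN2 switch on integrins from inside the cell. Each was highest on average with the combination, in that order by 0.25 ± 0.08, 0.28 ± 0.08, 0.30 ± 0.08 and 0.30 ± 0.08 over progesterone (limma adjusted p from 0.274 to 0.279). Over RU-486 alone the combination was higher by 0.04 ± 0.08, 0.10 ± 0.08, 0.17 ± 0.08 and 0.13 ± 0.08 (limma adjusted p from 0.769 to 0.903). For P3H4 and BCAM all 4 arrays with RU-486 lay above all 4 without it, as for ADAMTS9. THBS4, a matrix glycoprotein, was 0.34 ± 0.09 above vehicle with the combination (limma adjusted p = 0.374). NTN4, a laminin-related protein, differed from vehicle by -0.25 ± 0.10 with the combination (limma adjusted p = 0.374) and also by -0.25 ± 0.10 with RU-486 alone. Its 4 arrays with RU-486 all lay below the 4 without it.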

How the data were processed

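Total RNA of U373 cells was hybridised to 8 arrays, 2 for each of the combination, RU-486, progesterone and vehicle, grouped by sample title. Sample descriptions give RU-486 another number than the titles do, read here as the same drug. The authors deposited log2 expression values for 33297 probe sets, made with RMA, oligo and limma per the submitters' processing notes, without versions. RMA equalises the distribution of values between arrays, so a shift shared by most genes would be removed, and it compresses differences of dim genes. The 8 array medians ran from 6.93 to 7.02. The number of arrays limits precision.

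Of these probe sets, 19460 carry 1 symbol in the platform annotation, 1754 several and 12083 none. The probe set of highest mean was kept for each of 18417 genes. COL11A2, MMP16 and TIMP3 had several. Of the single-symbol probe sets, 19429 matched a RefSeq gene identifier.

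The model (limma 3.58.1 under R 4.3.3, with lmFit, contrasts.fit and eBayes, two-sided) was fitted on group means of all 8 arrays, with 4 residual degrees of freedom and a spread shared by all groups. P-values were adjusted by Benjamini-Hochberg over all genes of a comparison. The script was tested on simulated data. No genome was used.

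Members and gene lists were chosen with earlier results of these data known. In each family the text names the 3 members of highest mean and the 3 of smallest F-test p, in each comparison the 3 of smallest p each way, and all TIMPs, which gave 35 members, and of each partner list the 2 genes of smallest F-test p. COL4A1, COL4A2, MMP9, MMP10 and COL9A3 fall outside this rule and were chosen after their values were seen. Alternatives were a replicate block, leaving out each array, quantile normalization, array median centring, keeping only genes with a mean above 6.22, the mean of probe sets, an intensity trend with robust spread, array weights, and only the 4 arrays compared. Replicates of the same number deviated together (r from 0.197 to 0.511 over all genes in the 6 pairs of groups), but the labels name no shared batch and each comparison has 2 pairs, so the block is an alternative only.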

Additional observations from a re-analysis of the deposited data

Results flagged for a closer look

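The effect of RU-486 ran in opposite directions with and without progesterone, with no overlap between arrays in either comparison, in 4 of 99 members (4.04%, beside 5.25% of all genes). With progesterone minus without it, the difference of effects was 0.6261 log2 units for MMP3, 0.509 for MMP1, 0.3277 for COL12A1 and -0.2385 for COL9A3. For MMP3 the effect was 0.2972 with progesterone and -0.3289 without it, and for MMP1 it was 0.2511 with progesterone and -0.258 without it. For COL12A1 the effect was 0.2466 with progesterone and -0.0812 without it, and for COL9A3 -0.1033 with progesterone and 0.1351 without it. Tested as an interaction with limma, each had an adjusted p of 0.828, and the unadjusted p was 0.00868 for MMP3, 0.0294 for COL12A1, 0.0337 for MMP1 and 0.112 for COL9A3. MMP1 was dim on every array. The effect of RU-486 with progesterone is measured against the progesterone pair, whose replicates were farther apart than those of the other groups.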

How the results depend on the processing

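Where a member was among the 3 of smallest p in a comparison, no alternative turned its direction: 733 values kept direction and side of the threshold and 6 passed it when a progesterone array was left out. Over all 35 members named by the rule and 8 comparisons, 83 of 280 differences changed direction under at least 1 alternative, 5 of them larger than their standard error on all arrays, and 9 passed the threshold, each without a progesterone array. The 5 were COL20A1 (-0.00175) and MMP7 (0.013) in the average RU-486 effect and ITGB8 in the interaction (0.00468), all without progesterone replicate 2, and MMP16 (-0.0492) and TIMP3 (-0.0433) in the average progesterone effect with the mean of probe sets. For TIMP1 the combination against vehicle was -0.0548 without vehicle replicate 2. Leaving out each array in turn gave 0 to 1228 genes and 0 to 16 members for progesterone against vehicle, 0 to 1090 genes and 0 to 4 members for the combination against progesterone, and 0 to 998 genes and 0 to 3 members in the average RU-486 effect. The highest counts came without progesterone replicate 2 in the first comparison and without progesterone replicate 1 in the other 2. With the replicate block, 1 gene was called for the combination against vehicle and 6 genes in the average RU-486 effect, with 0 members, and the block changed no other count. Array weights gave 3 genes for RU-486 against vehicle and 7 for the combination against vehicle. An intensity trend with robust spread gave 4 genes by the F test, 17 for the combination against progesterone and 43 in the average RU-486 effect, and keeping the 13342 genes with a mean above 6.22 gave 12 for the average RU-486 effect, all with 0 members. Over the alternatives 503 family medians stayed within the replicate spread and 17 did not. Over genes with a mean above 6.22 the integrin median was 0.14 for the combination against vehicle, and the MMP median was -0.0248 for progesterone against vehicle and 0.0717 for the combination against progesterone. With the mean of probe sets the TIMP median for progesterone against vehicle was -0.0584. Leaving out 1 array moved the collagen median between 0.0319 and 0.298 for progesterone against vehicle and between -0.173 and 0.0857 for the combination against progesterone. The laminin median moved between 0.069 and 0.161 for the combination against vehicle, 0.0439 and 0.122 for the combination against RU-486 and -0.0108 and 0.0846 for the interaction. The integrin median moved between -0.0519 and 0.0714 for the combination against progesterone, 0.0196 and 0.0749 for the combination against RU-486 and -0.0632 and 0.0369 for the interaction. The MMP interaction median moved between -0.0872 and 0.117, and the TIMP median between -0.0116 and 0.129 for RU-486 against vehicle and 0.0801 and 0.17 for the combination against vehicle. The cause of these shifts was not tested beyond the arrays or genes each alternative leaves out. With 2 arrays a group, an effect under the replicate spread is not detectable, and dim genes have only compressed differences.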
